A study of Mus musculus with 18 samples.

Results

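SUN1L cells were compared with KDEL cells on the stiff substrate, using 6 of the 18 small RNA libraries of the series. These 6 were selected by their labels (line, gel stiffness and absence of an inhibitor), 3 libraries from SUN1L cells on 308 kPa gels and 3 from KDEL cells on 308 kPa gels. Both lines were made from NIH 3T3 TetON cells, a mouse embryonic fibroblast line with a doxycycline-controlled activator, and both were grown on fibronectin-coated polyacrylamide with 1 µg/ml doxycycline for 48 h. SUN1L cells expressed SS-HA-SUN1L-KDEL, the lumenal domain of SUN1 kept in the endoplasmic reticulum, a dominant-negative construct that disrupts the LINC complex. KDEL cells expressed SS-GFP-KDEL, in which GFP replaced that domain, and were in addition enriched by fluorescence sorting. Each construct was represented by 1 stable line, both lines received doxycycline, and no uninduced library was used, so an effect of LINC disruption and a difference between the lines cannot be told apart. The same lines on 1 kPa gels entered the fit for its estimate of the spread, and KDEL cells on 308 kPa with 10 µM blebbistatin or 25 µM Y27632 were used only where stated. The study names its replicates biological and the labels say nothing further on their origin, so p-values reflect only how these libraries varied, which may be technical.

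The LINC complex joins the cytoskeleton to the nuclear lamina: SUN proteins cross the inner nuclear membrane and bind, in the space between the membranes, the nesprins of the outer one. A miRNA is cut by Drosha and Dicer from a hairpin whose arms give a 5p and a 3p mature strand, usually of very unequal abundance, and it finds its target mRNAs mainly through its seed, bases 2 to 8 from the 5′ end. Many miRNA genes lie in clusters that are transcribed together. One such cluster on the mouse X chromosome, with miR-465, miR-470, miR-471, miR-741, miR-743, miR-871, miR-878, miR-880, miR-881 and miR-883, is known for its expression in testis. Another on chromosome 11, with miR-216a, miR-216b and miR-217, is known for its expression in the acinar cells of the pancreas.

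On the stiff substrate 18 miRNAs were called higher in SUN1L than in KDEL cells and 0 were called lower, at a Benjamini-Hochberg adjusted p under 0.05 in limma over 481 tested miRNAs (3.74% called higher). Of the 18, 12 belonged to the X-linked cluster, 4 to the miR-216 and miR-217 cluster, and the other two were miR-344d-3p and miR-122-5p. The 3p strands of miR-465a, miR-465b and miR-465c have 1 sequence and had identical values, so the 18 names stand for 16 distinct profiles. Testing asked for a value of 10 in 3 or more of all libraries of the series. Of the 18 called names, 12 reached 10 in no KDEL library and passed through SUN1L libraries only. In 3 or more KDEL libraries it was reached by 5 of the 18. For those 12 the filter itself favoured a higher value in SUN1L. At an unadjusted p under 0.05 there were 37 higher (7.69%) and 6 lower (1.25%). Counts of reads gave a similar picture on the higher side and calls on the lower side, with 21 higher and 2 lower in edgeR and 22 higher and 5 lower in DESeq2.

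**Figure D1:**
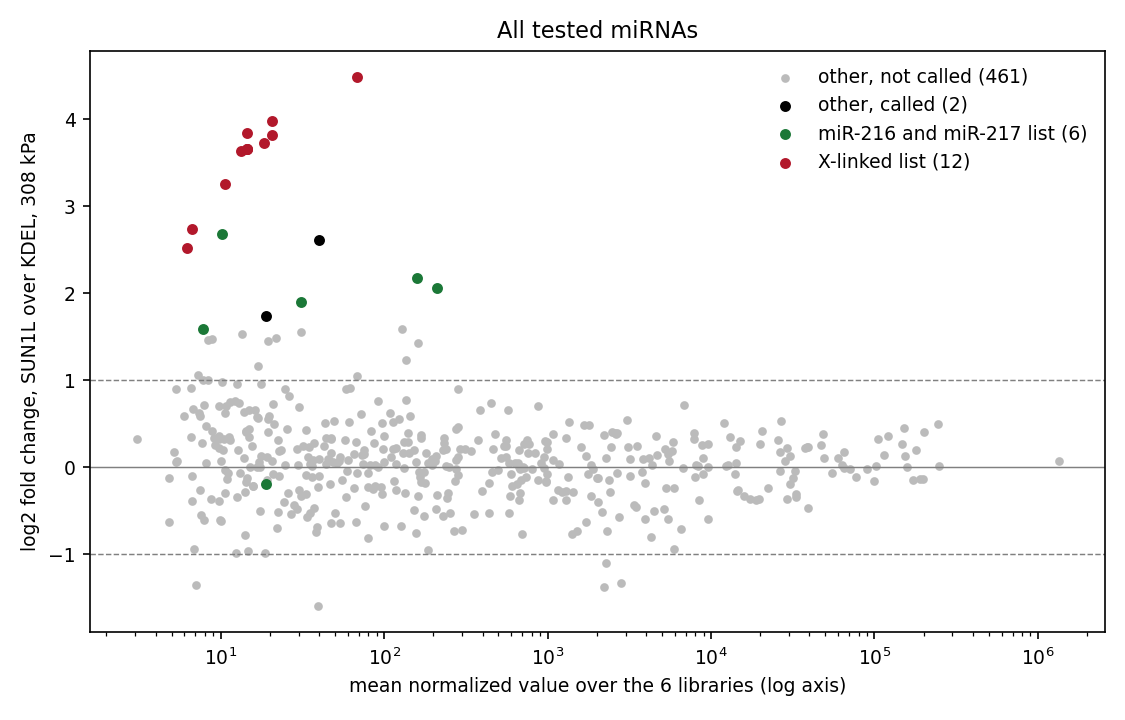
Each point is 1 of 481 tested miRNAs, with its mean normalized value over the 6 libraries on 308 kPa on a log axis (x) and its log2 fold change, SUN1L over KDEL, from limma on log2(value + 1) (y). Dashed lines mark 2-fold; the 12 X-linked miRNAs lie between 2.52 and 4.48, with miR-216a-3p at 2.68 and miR-344d-3p at 2.61 the only others in that range.

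The mature sequences of the called X-linked miRNAs are shown. They account for 12 of the 18 called names. The 3p strands of miR-465a, miR-465b and miR-465c are identical, and miR-465b-5p and miR-465c-5p are near copies of each other. The seed is in capitals, and all sequences are from RefSeq (GRCm38.p6), read 5′ to 3′ on the minus strand of chromosome X.
miR-881-3p: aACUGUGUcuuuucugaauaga
miR-871-3p: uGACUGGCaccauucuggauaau
miR-470-5p: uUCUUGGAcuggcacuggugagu
miR-741-3p: uGAGAGAUgccauucuauguaga
miR-880-3p: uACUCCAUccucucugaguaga
miR-878-5p: uAUCUAGUuggaugucaagaca
miR-743b-3p: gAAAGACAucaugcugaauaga
miR-465a/b/c-3p: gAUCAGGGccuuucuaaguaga
miR-465b-5p: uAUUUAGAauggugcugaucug
miR-465c-5p: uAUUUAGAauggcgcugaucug
miR-465b-5p and miR-465c-5p share the seed AUUUAGA and differ by U13C, counted from 1 at the 5′ end of miR-465b-5p, so that reads with an error at this base could be counted for the other. The remaining seeds were each found in no other tested miRNA outside the miR-465 3p strands, among the 427 tested miRNAs with an entry in the RefSeq table. Of the 10 distinct called X-linked sequences 5 ended in UAGA, all of them among the 6 distinct 3p sequences. This ending was picked from these sequences. It was found in 7 of the 38 distinct sequences listed for the cluster, called or not (18.4%). Among the 413 other tested sequences, 5p and 3p together, it was found in 0, and among all 1674 distinct mouse mature sequences in 12 (0.717%).

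The X-linked miRNAs were nearly silent in KDEL cells and present at low abundance in SUN1L cells. Values are the normalized signal as deposited, in which 1 is the floor and 1 read was worth 0.916 to 1.55 in these 6 libraries. miR-881-3p, the most abundant of the cluster, had values of 135, 150 and 110 in SUN1L cells, against 7.77, 3.17 and 4.58 in KDEL cells. These came from 119, 110 and 114 reads in SUN1L and 5, 3 and 5 reads in KDEL libraries. Its log2 fold change was 4.48 ± 0.43 (SE; adjusted p = 2.4e-06 by limma), and per sequenced miRNA read it was 24.7 times as frequent in SUN1L (exact 95% interval 14.2 to 46.8, counting error only).

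miR-465b-5p followed with values of 31.9, 47.6 and 39.4 in SUN1L cells, against 3.11, 1 and 1 in KDEL cells (log2 fold change 3.98). The identical 3p strands of miR-465a, miR-465b and miR-465c each had 34.1, 23.1 and 26.0 in SUN1L, against 1, 1 and 1.83 in KDEL (log2 fold change 3.66). miR-465c-5p had 17.1, 46.3 and 42.3 in SUN1L, against 1.55, 2.12 and 1 in KDEL (log2 fold change 3.73). In each of these the lowest SUN1L library was above the highest KDEL library, and the KDEL values rested on 2 or 3 reads in all.

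The groups were as far apart for miR-871-3p, miR-470-5p and miR-741-3p. miR-871-3p had values of 27.3, 28.6 and 27.9 in SUN1L, against 1, 1.06 and 1 in KDEL, that is 74 reads against 1 read (log2 fold change 3.84). miR-470-5p had 36.4, 39.5 and 41.4 in SUN1L, against 4.66, 1 and 1 in KDEL (log2 fold change 3.82). miR-741-3p had 17.1, 20.4 and 39.4 in SUN1L, against 1, 1.06 and 1 in KDEL (log2 fold change 3.63). The 3 SUN1L libraries of miR-871-3p and miR-470-5p lay close together, whereas SUN1L replicate 3 was the high one for miR-741-3p.

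At the low end of the cluster, miR-880-3p had 22.7, 16.3 and 21.2 in SUN1L, against 1.55, 1.06 and 1 in KDEL (log2 fold change 3.25). miR-878-5p had 10.2, 13.6 and 13.5 in SUN1L and was at the floor of 1 in all 3 KDEL libraries, which makes it at least 3.53-fold higher when each KDEL library is set to 3 reads. miR-743b-3p had 5.69, 12.3 and 16.4 in SUN1L, against 1, 1.06 and 1 in KDEL (log2 fold change 2.52), with the largest adjusted p of the 12 at 0.00133 in limma. With KDEL totals of 1 to 3 reads the ratios of these members are poorly bounded, for example 69.2 for miR-871-3p with an exact 95% interval of 12.04 to 2770, and 25.3 for miR-880-3p with an interval of 6.66 to 214. In KDEL replicate 3 and SUN1L replicate 3, 1 read is worth under 1 and falls to the floor, so a value of 1 there stands for 0 or 1 read and ratios can be overstated.

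**Figure D2:**
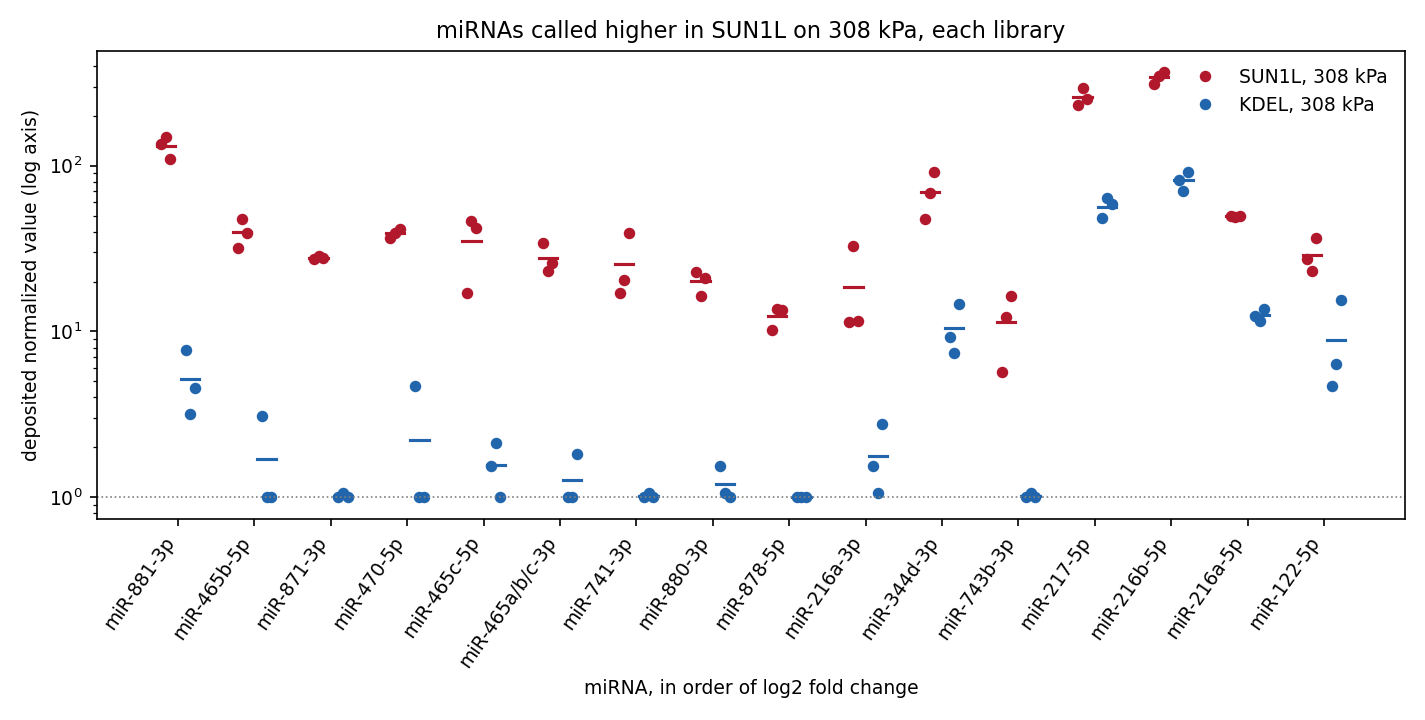
Points are the deposited normalized values (log axis) of each of 3 SUN1L libraries (left, red) and 3 KDEL libraries (right, blue) on 308 kPa for the called miRNAs, with a bar at the group mean and the floor of 1 dotted. The groups did not overlap for any of them; most X-linked miRNAs sit at or near the floor in KDEL cells, while miR-216b-5p and miR-217-5p are well above it in both lines.

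The cluster was chosen as a list with earlier results of these data known, and the filter on low values favours it. Of its 40 names 12 were tested, and 11 of these had no value of 10 in any of the 12 KDEL libraries, so they passed the filter through SUN1L libraries and the share of the 12 that was called is no support by itself. Without the filter, 28 of the 40 could be fitted, with a log2 fold change above 0 in 27 and a call in 13, the added one being miR-743a-3p. Over all 1091 miRNAs fitted without the filter, 20 were called higher and the median log2 fold change was 0.03. Under filters that asked for a value of 10 in 6 libraries, or for a mean of 10 over the 18 libraries, 5 of the 12 were left to test and 5 were called. These again passed through SUN1L libraries. Over all miRNAs tested under these 2 filters, 11 of 441 and 10 of 422 were called higher.

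Arms below the filter were therefore examined by their reads. The main stretch of the cluster covers 62.4 kb of the minus strand at chromosome X 66776760-66839121 (GRCm38) and holds 34 of the 40 names, between the protein-coding gene Slitrk2 and, farther away, Fmr1. Of its 22 arms that were not tested, 12 had reads in these libraries, and each of the 12 had more reads in SUN1L than in KDEL cells. Among all names that were not tested, 555 had reads in the 6 libraries, with more in SUN1L for 277 and more in KDEL for 218. A lone read in replicate 3 of either line falls to the floor and is counted as 0. The 12 together had 104 reads in SUN1L and 4 reads in KDEL libraries. miR-743a-3p, which shares the seed AAAGACA with miR-743b-3p, had 4, 4 and 7 reads in SUN1L, against 0, 2 and 0 in KDEL. miR-471-5p had 2, 2 and 9 reads in SUN1L and 0 in each KDEL library, and miR-463-3p had 2, 2 and 7 reads in SUN1L and 0 in each KDEL library.

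10 arms of the stretch had 0 reads in all 6 libraries, among them both arms of miR-742, miR-883b and miR-465d, which allows up to 3 reads per library. Strand choice differed between hairpins: miR-881 gave 343 reads of its 3p arm and 0 of its 5p arm in SUN1L cells, while miR-878 gave 33 reads of its 5p and 7 of its 3p arm. It was weaker for miR-463, with 11 reads of its 3p and 7 of its 5p arm in SUN1L cells. miR-465b-5p had 104 reads and miR-465c-5p 93 reads there, against 74 reads of the 3p sequence that the miR-465 hairpins share. The 6 names of miR-201, miR-547 and miR-509, which lie 1149 kb further along the chromosome, had 14 reads in SUN1L and 6 reads in KDEL libraries. miR-547-3p, the only one of these with more than 1 KDEL read, had 6 reads in SUN1L and 5 in KDEL, a ratio of 1.12 with an exact 95% interval of 0.285 to 4.65. The hairpin of miR-881 is shown as the source of the most abundant strand, at chromosome X 66801944-66802021 (minus strand), with both arms in capitals.
Mir881: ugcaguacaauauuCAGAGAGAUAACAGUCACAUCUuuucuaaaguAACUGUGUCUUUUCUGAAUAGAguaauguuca

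**Figure D3:**
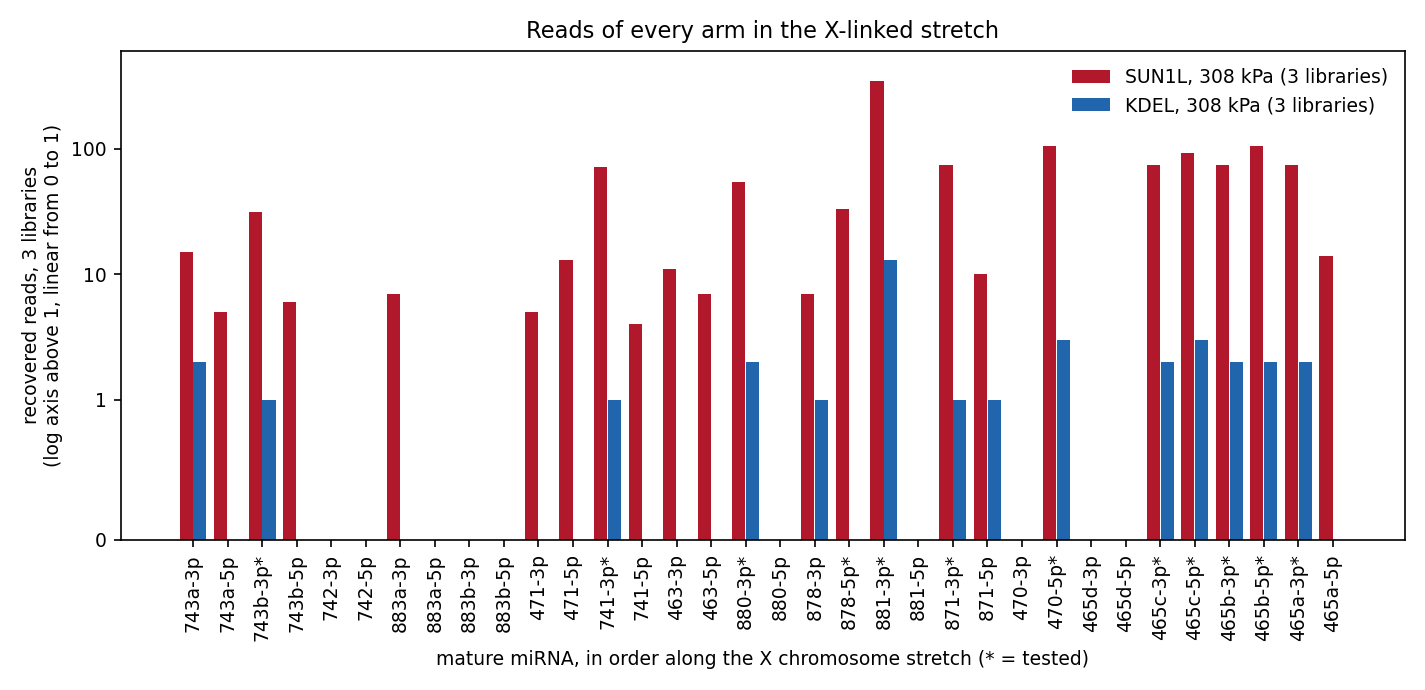
Bars are the recovered reads of each mature arm in the 34-name stretch of the X chromosome, summed over 3 SUN1L libraries (left bar, red) and 3 KDEL libraries (right bar, blue) on 308 kPa, on an axis that is linear from 0 to 1 and logarithmic above. Arms are in order along the chromosome and an asterisk marks those tested; every arm with reads has more of them in SUN1L, with the highest bar at 343 reads for miR-881-3p.

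Summed over the 10 distinct tested sequences, the cluster made up 56.3, 73.0 and 58.3 reads per 1e6 recovered miRNA reads in SUN1L cells on 308 kPa, against 3.05, 1.73 and 1.2 in KDEL cells on 308 kPa. The mean was 31.4 times as high in SUN1L, and 32.2 times when the deposited values were summed instead. On 1 kPa the sums were 58.6 to 124 in SUN1L cells and 1.88 to 3.84 in KDEL cells. KDEL cells on 308 kPa had 1.42 to 2.37 with Y27632 and 1.73 to 3.67 with blebbistatin. All 6 SUN1L libraries were thus at 56.3 or more, and all 12 KDEL libraries at 3.84 or less, on both substrates and with either inhibitor in KDEL cells. These sums favour SUN1L, since 11 of the 12 tested names passed the filter only through SUN1L libraries. Over all 40 listed names, tested or not, the shared miR-465 3p sequence was counted once. These wider sums were 61.7 to 78.2 in SUN1L and 1.54 to 3.81 in KDEL cells on 308 kPa, with means of 69.4 and 2.68.

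**Figure D4:**
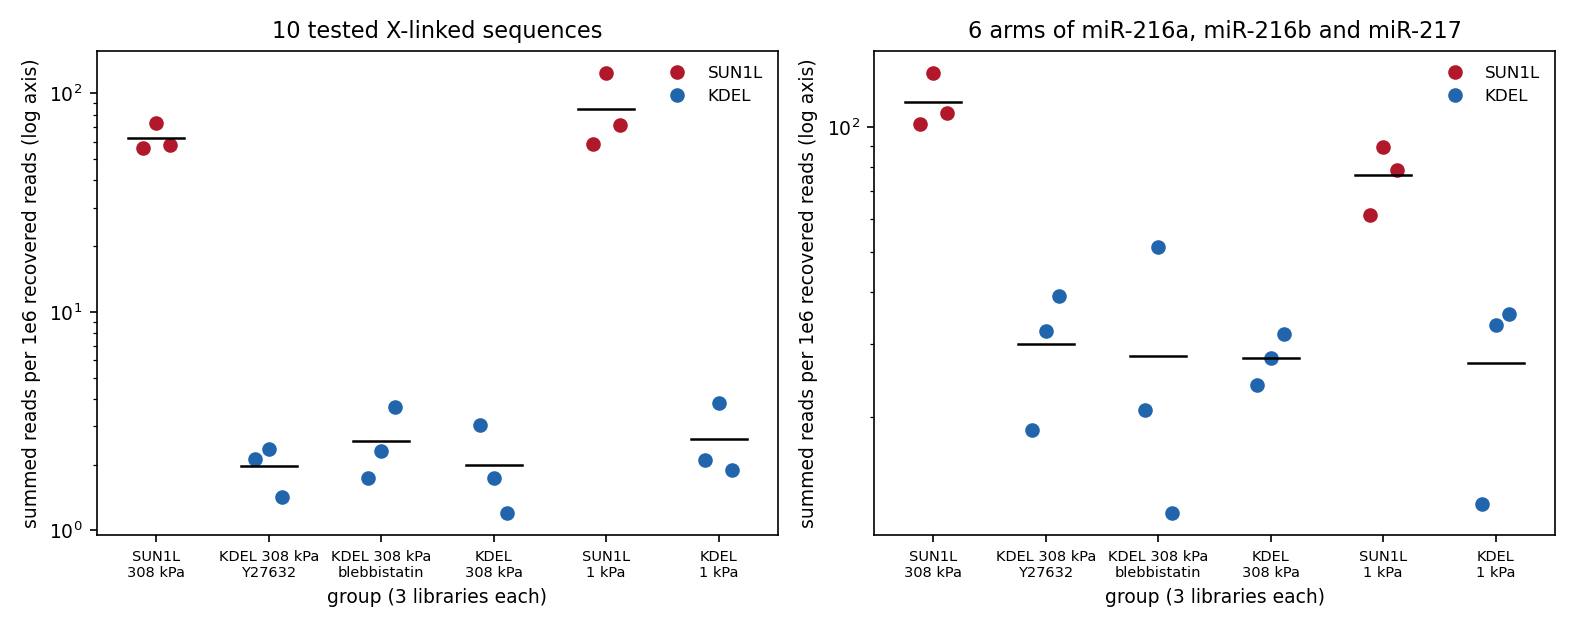
Summed reads per 1e6 recovered miRNA reads (log axes) of the 10 tested X-linked sequences (left) and of the 6 arms of miR-216a, miR-216b and miR-217 (right), 1 point per library with a bar at the group mean, SUN1L in red and KDEL in blue. For the X-linked sequences the lowest SUN1L library is at 56.3 and the highest KDEL library at 3.84. Of the 12 tested X-linked names 11 passed the filter only through SUN1L libraries. For miR-216 and miR-217 the lowest SUN1L library is at 61.2 and the highest KDEL library at 51.5.

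The 5p strands of miR-216a, miR-216b and miR-217 were higher in SUN1L than in KDEL cells and, unlike the X-linked miRNAs, had reads well above the floor in both lines. Their genes lie within 17.6 kb of the plus strand of chromosome 11, with miR-216b at 28746204-28746265, miR-216a at 28757018-28757079 and miR-217 from 28763761 (GRCm38). The annotation places miR-216b within the lncRNA gene Mir217hg, and miR-216a and miR-217 within the span of the lncRNA gene Gm40818. Their mature strands are shown with that of miR-216c, which is read from the opposite strand of the miR-216b hairpin.
miR-216a-5p: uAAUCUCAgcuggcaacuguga
miR-216b-5p: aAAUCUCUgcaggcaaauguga
miR-217-5p: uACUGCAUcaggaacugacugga
miR-216a-3p: cACAGUGGucucugggauuaug
miR-216c-3p: uUUGCCUGcagagauuucccagu
From 1 at the 5′ end, miR-216a-5p differs from miR-216b-5p by U1A, A8U, U11A and C17A, so the seeds of this pair differ in their last base only.

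miR-216b-5p, the most abundant of the locus, had values of 313, 346 and 367 in SUN1L cells, against 82.3, 70.9 and 91.6 in KDEL cells. Its log2 fold change was 2.06 ± 0.43 (SE; adjusted p = 0.00563 by limma). miR-217-5p had values of 233, 294 and 251 in SUN1L, against 48.1, 63.5 and 58.6 in KDEL (log2 fold change 2.18 ± 0.38; limma adjusted p = 0.00133). Both had at least 31 reads in every library, so the floor plays no part in these values.

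miR-216a-5p had 50.05, 48.99 and 50.01 in SUN1L, against 12.4, 11.6 and 13.7 in KDEL (log2 fold change 1.90 ± 0.37; limma adjusted p = 0.00319). Its partner strand miR-216a-3p had 11.4, 32.7 and 11.5 in SUN1L, against 1.55, 1.06 and 2.75 in KDEL (log2 fold change 2.68; limma adjusted p = 0.00133), and here SUN1L replicate 2 was the high library. miR-216a-3p reached a value of 10 in no KDEL library of the series, so it passed the filter on low values through SUN1L libraries only. miR-216b-3p, with 4.55, 13.6 and 19.2 in SUN1L and 1.55, 5.29 and 2.75 in KDEL, was not called, and its groups overlapped (log2 fold change 1.59, 95% interval 0.54 to 2.64). When the spread was taken from all 18 libraries, neither miR-216b-5p (limma adjusted p = 0.641) nor miR-216a-5p (0.443) was called.

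The opposite strand of the same hairpin showed no separation of the lines. miR-216c-3p, whose position overlaps that of miR-216b-5p by 17 bases on the minus strand, had 10, 7 and 33 reads in SUN1L, against 5, 29 and 24 reads in KDEL. The corresponding values were 11.4, 9.52 and 31.7 in SUN1L and 7.77, 30.7 and 22.0 in KDEL, with overlapping groups and a log2 fold change of -0.19 (95% interval -1.45 to 1.06). The 3 libraries of each line were thus well apart for miR-216b-5p and intermixed for miR-216c-3p. The miR-216b hairpin at chromosome 11 28746191-28746276 (plus strand) is shown with its 2 mature arms in capitals.
Mir216b: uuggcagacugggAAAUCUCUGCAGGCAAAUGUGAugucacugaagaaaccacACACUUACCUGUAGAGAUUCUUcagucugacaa

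miR-344d-3p, encoded by 3 gene copies on the minus strand of chromosome 7, had values of 47.8, 68.0 and 91.4 in SUN1L, against 9.32, 7.40 and 14.7 in KDEL (log2 fold change 2.61 ± 0.52, SE; adjusted p = 0.00445 by limma). Every SUN1L library had at least 42 reads and every KDEL library at most 16. The related miR-344-3p, from the same region, had 135, 152 and 235 in SUN1L and 83.9, 98.4 and 116 in KDEL (log2 fold change 0.77, 95% interval -0.17 to 1.71). miR-344b-3p had 88.7, 110 and 203 in SUN1L and 66.8, 68.7 and 115 in KDEL (log2 fold change 0.63, 95% interval -0.28 to 1.54). Neither was called, and the groups of miR-344b-3p overlapped. The strands are shown because they differ in the seed: miR-344d-3p carries AUAUAAC, which no other tested miRNA with an entry had.
miR-344d-3p: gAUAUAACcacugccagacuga
miR-344-3p: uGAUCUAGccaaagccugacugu
miR-344b-3p: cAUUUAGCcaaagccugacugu

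miR-122-5p, the dominant miRNA of hepatocytes, was the weakest of the 18 calls. Its values were 27.3, 23.1 and 36.5 in SUN1L, against 4.66, 6.35 and 15.6 in KDEL, from 17 to 38 reads in SUN1L and 3 to 17 reads in KDEL libraries. Its log2 fold change was 1.74 ± 0.41 (SE; adjusted p = 0.0169 by limma), and the call was lost when any of SUN1L replicate 1, SUN1L replicate 3, KDEL replicate 1 or KDEL replicate 2 was left out (limma adjusted p = 0.0556, 0.107, 0.123 and 0.0829).

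Next to the threshold stood miR-146a-5p, a feedback inhibitor of NF-κB signaling, and the miR-200 family of epithelial cells. miR-146a-5p had values of 201, 195 and 188 in SUN1L, against 60.6, 74.0 and 58.6 in KDEL (log2 fold change 1.59, 95% interval 0.66 to 2.51; adjusted p = 0.059 by limma). miR-200a-3p had 168, 188 and 221 in SUN1L, against 68.3, 84.6 and 90.7 in KDEL (log2 fold change 1.24; limma adjusted p = 0.084). miR-200b-3p had 182, 237 and 271 in SUN1L, against 49.7, 140 and 84.2 in KDEL, and miR-429-3p had 46.6, 42.2 and 50.0 in SUN1L, against 9.32, 22.2 and 16.5 in KDEL. The groups did not overlap for any of these 4, and miR-146a-5p and miR-200a-3p were each called in 12 of the alternatives, among them edgeR on the recovered reads (adjusted p = 0.0186 and 0.00938).

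The same holds for a wider set: every SUN1L library was above every KDEL library for 66 of the 481 miRNAs (13.7%), and below every KDEL library for 26 (5.41%). Under a rule of a 2-fold difference with no overlap, 27 were higher (5.61%) and 3 were lower (0.624%). The 3 were miR-450b-5p, miR-503-5p and miR-33-3p.

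No miRNA was called lower, and the 5 of lowest p on that side are given as values. miR-450b-5p and miR-503-5p come from the X-linked cluster with miR-322, whose members are known to slow the cell cycle. miR-450b-5p had values of 1331, 1529 and 1688 in SUN1L, against 6569, 2835 and 2926 in KDEL (log2 fold change -1.33, 95% interval -2.16 to -0.50; adjusted p = 0.0865 by limma). miR-503-5p had 969, 970.2 and 1595 in SUN1L, against 5226, 1852 and 2699 in KDEL (log2 fold change -1.37, 95% interval -2.35 to -0.39; limma adjusted p = 0.152). In both, KDEL replicate 1 was the high library, and the other KDEL libraries were still above every SUN1L library.

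miR-33-3p, the partner strand of a regulator of cholesterol export, had 18.2, 8.16 and 38.5 in SUN1L, against 63.7, 50.8 and 55.9 in KDEL (log2 fold change -1.59). miR-1929-5p had 2.28, 6.80 and 1.92 in SUN1L, against 15.5, 10.6 and 5.49 in KDEL (log2 fold change -1.35), and miR-503-3p had 105, 95.2 and 173 in SUN1L, against 349, 159 and 225 in KDEL (log2 fold change -0.95). The groups of miR-1929-5p and miR-503-3p overlapped. Of the first 3 the call depended on the fit: with a term for the 3 runs of library numbers miR-450b-5p, miR-503-5p and miR-33-3p were all lower (limma adjusted p = 0.0249, 0.019 and 0.0255), and edgeR called miR-450b-5p and miR-503-5p.

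The X-linked miRNAs outside the testis cluster were counted as well. Of 36 tested, 0 were called in either direction, 26 had a log2 fold change below 0, and the median was -0.31, against a median of 0.08 over all 481. In 8 of the 36 every SUN1L library was below every KDEL library (26 of all 481, 5.41%), and in 0 above (66 of all 481, 13.7%). Besides miR-450b-5p and miR-503-5p the lowest log2 fold change was that of miR-322-5p, with values of 1124, 1206 and 1677 in SUN1L, against 5621, 1674 and 2365 in KDEL (log2 fold change -1.10, 95% interval -2.33 to 0.14), and its groups overlapped by 1 library of each line.

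The abundant miRNAs of these fibroblasts differed little. Over the 6 libraries the 12 of highest mean were miR-21a-5p, let-7i-5p, miR-143-3p, miR-24-3p, miR-199a-3p, miR-199b-3p, miR-125b-5p, miR-199a-5p, let-7f-5p, miR-30a-5p, miR-22-3p and miR-99b-5p, and none was called. miR-21a-5p, known from fibrosis, had a log2 fold change of 0.07 (95% interval -0.54 to 0.67). let-7i-5p was at 0.02 (95% interval -0.47 to 0.50) and miR-30a-5p at 0.13 (95% interval -0.45 to 0.70).

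miR-143-3p, typical of smooth muscle and fibroblasts, came closest to a difference, with a log2 fold change of 0.49 (95% interval -0.00 to 0.99), and its 3 SUN1L libraries lay above all KDEL libraries. miR-24-3p was at 0.41 (95% interval -0.21 to 1.03) and miR-22-3p at 0.46 (95% interval -0.23 to 1.15). miR-199a-3p, miR-199b-3p and miR-199a-5p were at -0.13, -0.13 and -0.15, with intervals that reached beyond 2-fold in one direction or both; the 3p strands of miR-199a and miR-199b share reads. miR-125b-5p was at 0.20, miR-99b-5p at 0.26 and let-7f-5p at 0.00. All of the 100 miRNAs of highest mean lay within 2-fold, but the 95% interval of only 55 of them did so.

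Described by family, 21 of the 25 lists with a tested member had no call. The 20 fibroblast marker strands, of miR-199a, miR-199b, miR-214, miR-143, miR-145a, miR-152, miR-22, miR-21a, miR-10a and miR-100, were all tested, with a median of 0.02, and their summed reads per 1e6 were 420360 to 448822 in SUN1L and 391453 to 498822 in KDEL. In these sums the reads shared by the 3p strands of miR-199a and miR-199b were counted for both names, so the sums are overstated. The lowest p among them, after that of miR-143-3p, was that of miR-199b-5p, at -0.94 (95% interval -1.98 to 0.10). The let-7 and miR-98 list, repressors of growth genes, had 0 of 22 called and a median of -0.09, with the lowest p for let-7c-2-3p (-0.77, 95% interval -1.74 to 0.21) and let-7a-1-3p (-0.74, 95% interval -1.69 to 0.21). The growth-promoting miR-17 clusters had 0 of 17 called and a median of -0.19, with miR-19b-1-5p at -0.78 and miR-19a-3p at -0.73. The miR-15 and miR-16 family, which restrains the cell cycle, had 0 of 13 called and a median of -0.38, with miR-322-5p and miR-15a-3p at -0.64 of lowest p.

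Of the collagen repressors of the miR-29 family 0 of 7 were called (median 0.00), with miR-29b-1-5p at -0.33 and miR-29c-5p at 0.24. Of the miR-30 family 0 of 11 were called (median -0.18), with miR-30d-3p at -0.35 and miR-30c-5p at -0.34. The miR-23, miR-27 and miR-24 list had a median of 0.23 with 0 of 11 called, and besides miR-24-3p its member of lowest p was miR-24-2-5p at 0.42. The miR-99, miR-100 and miR-125 list had a median of 0.20 with 0 of 11 called, led by miR-100-5p at 0.36 and miR-99b-3p at 0.33.

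Of miR-221 and miR-222, which promote proliferation, 0 of 4 were called (median 0.21): miR-222-3p was at 0.30, miR-222-5p at 0.20, miR-221-3p at 0.22 and miR-221-5p at -0.06. In the miR-181 family 0 of 8 were called (median 0.14), with miR-181a-5p highest at 0.72 (95% interval -0.12 to 1.56) and miR-181b-5p at 0.25. In the miR-143 and miR-145 list 0 of 4 were called (median 0.15), with miR-143-5p at -0.01, miR-145a-3p at 0.29 and miR-145a-5p at 0.01 beside miR-143-3p. Among 23 tested strands known to respond to force in other studies 0 were called, and the median was -0.01, with miR-146a-5p at the top and miR-146b-5p at 0.51 (95% interval -0.17 to 1.19). miR-210, the miRNA of hypoxia, gave -0.63 for its 3p strand and 0.32 for its 5p strand, neither called.

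**Figure D5:**
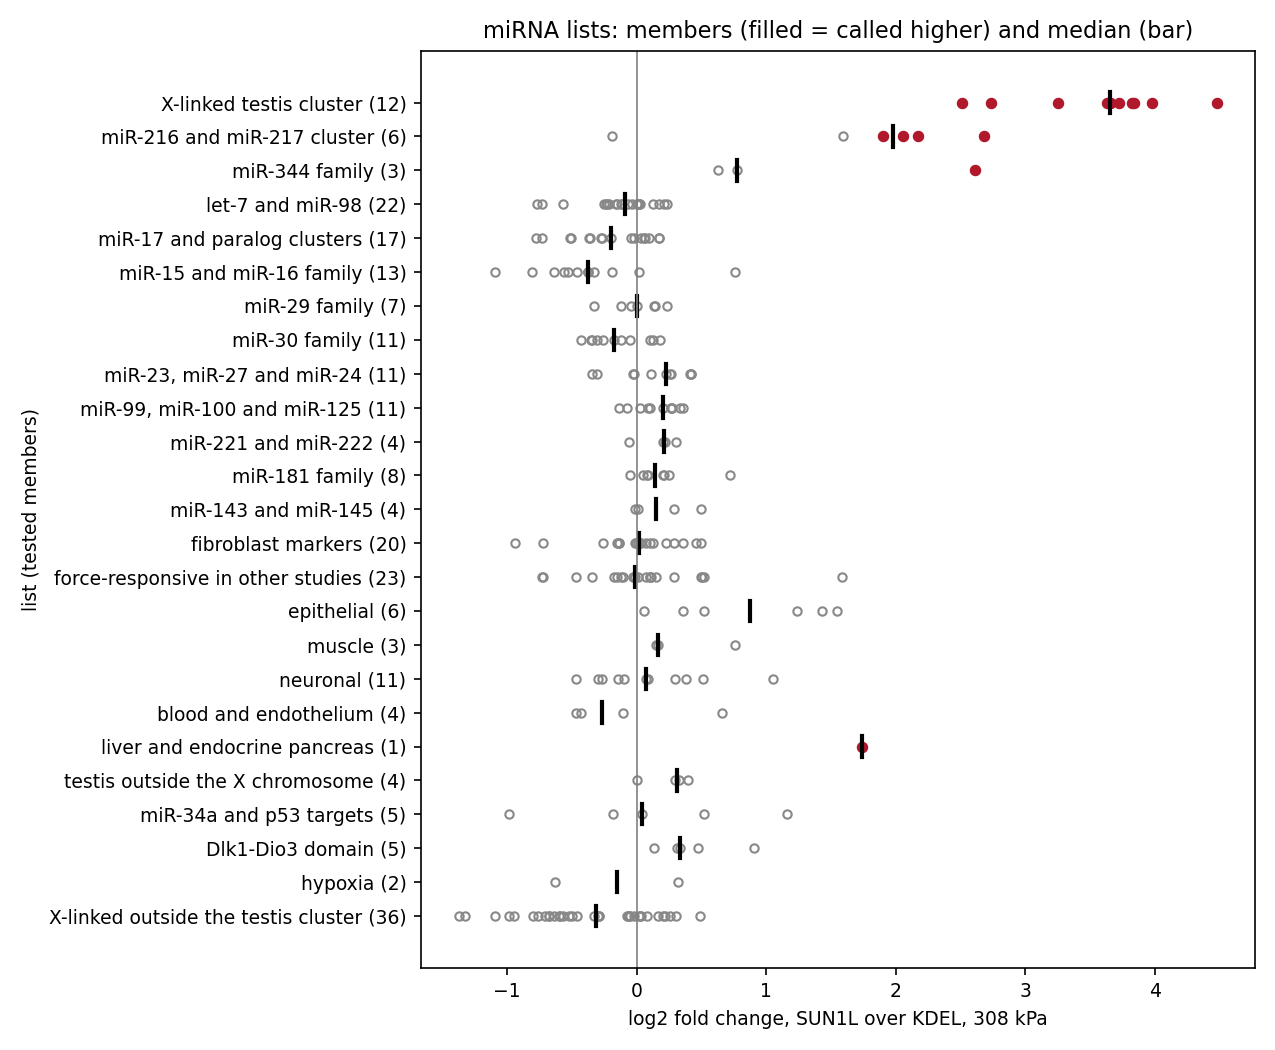
Each circle is a tested member of a list at its log2 fold change, SUN1L over KDEL on 308 kPa (x), filled where called higher, with a bar at the list's median. The X-linked list (median 3.66) and the miR-216 and miR-217 list (median 1.98) stand to the right, while 21 lists have no filled circle; the median of all 481 tested miRNAs is 0.08.

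Markers of other cell types ranged from absent to abundant. Summed reads per 1e6 of the neuronal list were 7795 to 8592 in SUN1L and 10227 to 12650 in KDEL, those of the testis list outside the X chromosome 17470 to 25340 in SUN1L and 15783 to 21191 in KDEL, those of the muscle list 145 to 192 in SUN1L and 123 to 178 in KDEL, and those of the blood and endothelium list 119 to 137 in SUN1L and 121 to 211 in KDEL. Some defining members were nearly absent: miR-124-3p of neurons, miR-203-3p of keratinocytes and miR-302a-3p of pluripotent cells had 0 or 1 read in every library, and miR-142-3p of blood cells had at most 3 reads in every library. miR-126a-3p of endothelium had 672, 484 and 684 reads in SUN1L and 753, 544 and 670 reads in KDEL. Of the pluripotent list (24 names) and the Sfmbt2 cluster (57 names) 0 were tested. The testis miRNAs outside the X chromosome, miR-34b and miR-34c, had 0 of 4 tested strands called and a median of 0.31 (miR-34c-3p 0.40, miR-34c-5p 0.33, miR-34b-3p 0.29 and miR-34b-5p 0.00). The epithelial list had a median of 0.88 over 6 tested strands, 0 called, with summed reads per 1e6 of 83.0 to 105 in SUN1L and 35.8 to 54.6 in KDEL. miR-375-3p of endocrine pancreas was not tested, with 11, 5 and 8 reads in SUN1L and 4, 3 and 7 reads in KDEL. miR-122-5p was the only tested member of the liver and endocrine pancreas list, and the summed reads per 1e6 of that list were 5.50 to 6.84 in SUN1L and 1.73 to 4.12 in KDEL. In a bulk library, more cells with a miRNA and more of it per cell cannot be told apart, and the part of other cell types in these values was not tested.

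The muscle list had 0 of 3 called and a median of 0.17 (miR-1a-3p 0.76, miR-206-3p 0.17 and miR-499-5p 0.15). The neuronal list had 0 of 11 called and a median of 0.07, with miR-129-5p at 1.05 (95% interval 0.33 to 1.77) and miR-7a-5p at -0.47. The blood and endothelium list had 0 of 4 called and a median of -0.27, with miR-150-5p at 0.66, miR-126a-5p at -0.47, miR-486-5p at -0.43 and miR-126a-3p at -0.11. The p53 list (miR-34a, miR-192, miR-194 and miR-215) had 0 of 5 called and a median of 0.04, with miR-215-5p at 1.16 (95% interval 0.21 to 2.12) and miR-34a-3p at -0.98 (95% interval -2.12 to 0.15). The imprinted Dlk1-Dio3 domain had 0 of 5 tested strands called and a median of 0.33, with miR-379-5p at 0.90 (95% interval -0.21 to 2.01) and miR-381-3p at 0.47.

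Every pair of libraries from different lines was less alike than every pair from 1 line. Recovered miRNA reads were 4.002 to 6.73 (in units of 1e6) in SUN1L and 3.94 to 5.83 in KDEL libraries. Over the 481 tested miRNAs, Spearman's rho was 0.9802 to 0.9867 among the SUN1L libraries, 0.9802 to 0.9907 among the KDEL libraries and 0.9596 to 0.9796 between the lines, given as a description across miRNAs, which are not independent. Dates are not given in the labels. The library numbers fall into 3 runs, each with 1 library of either line on 308 kPa, and in each run the log2 difference was above 0 for the called miRNAs, since their groups did not overlap.

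With the deposited scaling the median log2 fold change of all 481 miRNAs, SUN1L over KDEL, was -0.68 on 1 kPa, against 0.08 on 308 kPa. Without SUN1L 1 kPa replicate 2 the median on 1 kPa was -0.38. With median-of-ratios scaling it was 0.00, but that scaling centres such medians by design. Whether the shift on 1 kPa comes from the scaling or from the cells was not tested. With the deposited scaling 30 miRNAs were called higher (6.24%) and 159 lower (33.1%) on 1 kPa, and with median-of-ratios scaling 77 of the 481 were called higher and 94 lower. The values on 1 kPa are therefore given under both scalings.

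The filter on low values counted the SUN1L libraries on 1 kPa, and 12 of the 18 called miRNAs passed it only through SUN1L libraries. Agreement between the substrates was therefore favoured by the filter. Of the 18 miRNAs called on 308 kPa, 17 were also called higher on 1 kPa with the deposited scaling and 18 with median-of-ratios scaling. The exception was miR-122-5p, with a log2 fold change of 0.97 (limma adjusted p = 0.073), against 1.68 with median-of-ratios scaling. miR-881-3p had a log2 fold change of 5.34 on 1 kPa with the deposited and 6.26 with median-of-ratios scaling, and miR-871-3p had 4.55 and 5.37. miR-217-5p had 1.67 on 1 kPa with the deposited and 2.39 with median-of-ratios scaling, miR-216b-5p 1.11 and 1.83, and miR-344d-3p 1.49 and 2.21. In the deposited values on 1 kPa the groups of miR-216b-5p overlapped, with a lowest SUN1L value of 96.4 and a highest KDEL value of 97.8. Those of miR-344d-3p overlapped too, with 27.3 and 33.9.

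Whether the difference between the lines depended on rigidity was tested as an interaction, the log2 fold change on 308 kPa minus that on 1 kPa. In limma 0 of 481 miRNAs were called (127, or 26.4%, at an unadjusted p under 0.05), and 68 with a term for the 3 runs of library numbers. The median interaction over all 481 was 0.76 with the deposited scaling and 0.01 with median-of-ratios scaling, under which 0 were called without and 0 with the term for runs (75 and 125 at an unadjusted p under 0.05). With read counts there were 0 calls in edgeR (72 at an unadjusted p under 0.05) and 0 in DESeq2 (85).

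Of the 18, miR-880-3p had the smallest unadjusted interaction p with the deposited scaling (0.000269, limma adjusted p = 0.118), at an interaction of 2.22, which was 1.12 with median-of-ratios scaling (limma adjusted p = 0.352). miR-881-3p had an interaction of -0.86 with the deposited and -1.89 with median-of-ratios scaling, and neither was called (limma adjusted p = 0.347 and 0.24). miR-217-5p changed sign between the scalings, with 0.50 under the deposited and -0.31 under median-of-ratios scaling (limma adjusted p = 0.542 and 0.81). miR-146a-5p had an interaction of 1.95 ± 0.62 (SE; limma adjusted p = 0.118), which was 1.16 with median-of-ratios scaling (limma adjusted p = 0.313). Its deposited values on 1 kPa were 35.6 to 96.4 in SUN1L and 39.4 to 126 in KDEL cells.

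Among the KDEL libraries with inhibitors, miR-217-5p had values of 43.4 to 88.6 with Y27632 and 16.8 to 65.9 with blebbistatin, against 48.1 to 63.5 without, all below the lowest SUN1L library on 308 kPa (233). miR-216b-5p had 70.2 to 172 with Y27632 and 3.87 to 133 with blebbistatin, against 70.9 to 91.6 without, all below 313. miR-344d-3p had 13.4 to 49.03 with Y27632 and 6.45 to 15.1 with blebbistatin, against 7.40 to 14.7 without. Its highest Y27632 library, replicate 3, was above the lowest SUN1L library on 308 kPa (47.8). miR-122-5p had 10.0 to 22.6 with Y27632 and 7.999 to 51.6 with blebbistatin, against 4.66 to 15.6 without, and the highest of these was above all SUN1L libraries. The value of 51.6 and the value of 3.87 for miR-216b-5p were both in blebbistatin replicate 3, the library of lowest depth (1.36 in units of 1e6 recovered reads).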

How the data were processed

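Small RNA was sequenced from 18 libraries, 3 in each of 6 groups, numbered in accession order as names only. The study states that the authors checked reads with FastQC, trimmed adapters and counted reads per mature miRNA in AvadisNGS. The labels name mouse build mm9, yet 1646 of 1662 entries matched by name lay at their GRCm38.p6 position in RefSeq, so positions here are GRCm38. The deposited values are a normalized signal, scaled by 1 factor per library, with a floor of 1. For this miRNA table the scaling method is not given in the sources used here. Values above the floor were whole multiples of 1 read (100% of them, tolerance 0.05 of a read), so reads were recovered by division; depth was 3.94 to 6.73 (1e6 reads) in the 6 libraries compared. Intervals on reads cover counting error only.

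The table held 2035 entries and 1900 names (77 with several genomic copies, of which that of highest mean was used); the number of sample columns without a match was 0. Names that reached a value of 10 in 3 or more of the 18 libraries were tested (481). limma 3.58.1 (R 4.3.3, trend, Benjamini-Hochberg) was fitted on log2(value + 1) to the 12 libraries without inhibitor in 4 groups, so fold changes of low miRNAs are understated. A call is an adjusted p under 0.05. edgeR 4.0.16 and DESeq2 1.42.0 on recovered reads, other scalings, filters, pseudocounts, library sets and leaving out each library were alternatives. On simulated data for this contrast (481 miRNAs), the fit recovered 41.79% of the planted 2-fold changes, 92.31% at 4-fold and 98.53% at 8-fold, with 5 false calls among 281 unchanged. Changes were planted up and down in 67, 65 and 68 miRNAs, a far larger share than was called in these data. Recovery in these data may therefore be lower.

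Named were all called miRNAs, the 5 of lowest p in a direction with fewer than 5 calls, the 12 of highest mean, and 2 to 4 members of lowest p of each list. miR-146a-5p, the miR-200 family, miR-322-5p, the untested X-linked arms and the members of the 2-fold rule were named after their values were seen. The members and lists were chosen with earlier results of these data known. Sequences are from RefSeq, with an entry for 427 of 481 tested and 17 of 18 called miRNAs.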

Additional observations from a re-analysis of the deposited data

Results flagged for a closer look

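Among the 1419 names below the filter on low values, 555 had reads in the 6 libraries on 308 kPa, with more reads in SUN1L for 277 and more in KDEL for 218. In 3 of them each SUN1L library had more than 3 reads and more than every KDEL library, in reads and in the normalized value. Names with the reverse pattern, KDEL above SUN1L, are not given here. X-linked arms with 0 KDEL reads, such as miR-471-5p, had 3 or fewer reads in some SUN1L library. miR-743a-3p, of the X-linked cluster, had 15 reads in SUN1L (4, 4 and 7) and 2 in KDEL libraries (0, 2 and 0). miR-7070-5p had 27 reads in SUN1L (9, 8 and 10) and 13 in KDEL libraries (4, 5 and 4). miR-3080-5p had 15 reads in SUN1L (7, 4 and 4) and 6 in KDEL libraries (1, 3 and 2).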

How the results depend on the processing

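Of the 18 calls, 12 held under every one of the 29 alternatives in which the miRNA was tested, and none of the 18 changed direction. The count of 18 higher became 11 with a value of 10 in 6 libraries, 10 with a mean of 10, and 32 with array weights, and it was 17 to 22 with 1 library left out. The count of 0 lower became 1 with only the 6 libraries, no filter or a pseudocount of 10; 2 with median-of-ratios scaling or edgeR; 3 with the run covariate, quantile scaling or array weights; and 5 with DESeq2. The 2 settings chosen after seeing the data, the run covariate with median-of-ratios or with quantile scaling, gave 8 and 3; leaving out 1 library gave 0 to 2, with 2 without SUN1L 1 kPa replicate 2. The interaction count of 0 became 68 with the run covariate (0 when combined with median-of-ratios or quantile scaling), 6 with array weights, and 1 with all 18 libraries, with 17 libraries, with no filter or with a pseudocount of 10; it was 0 to 4 with 1 library left out, with 4 without SUN1L 1 kPa replicate 1. The X-linked count of 12 became 5 under each stricter filter, which tested fewer, and was 12 to 12 with 1 library left out. The miR-216 and miR-217 count of 4 became 2 with all 18 libraries and was 4 to 5 with 1 library left out. The 2-fold rule gave 6 lower in place of 3 with a pseudocount of 0, and 2 to 19 with 1 library left out: 19 without SUN1L replicate 3, 9 without KDEL replicate 2 or 3, and 5 without SUN1L replicate 1 or 2. The causes were not tested, apart from the smaller sets under stricter filters.

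Calls were lost for miR-216a-3p and miR-743b-3p under quantile scaling (limma adjusted p = 0.124 and 0.126), for miR-344d-3p without the filter (0.0559), and for miR-122-5p under 9 alternatives. The median log2 fold change of all tested miRNAs was 0.08, -0.01 with median-of-ratios and -0.02 with quantile scaling. No paired analysis was possible because the labels give no replicate numbers that pair libraries; the run covariate groups libraries by number only, with a meaning that the labels do not give. Reads of 0 to 5 in KDEL libraries limit the size of the X-linked ratios.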
